A study of Mus musculus with 16 samples.

Results

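The genes described are 9 genes of oligodendrocytes and central myelin, *Hapln2*, *Klk6*, *Mog*, *Mobp*, *Olig1*, *Olig2*, *Ermn*, *Cldn11* and *Aspa*, among the 22609 gene symbols counted in RNA-seq of sorted sensory neurons. They were taken by symbol, with a row for all 9 in every library, and were chosen by the measured levels of *Hapln2* and *Klk6*, which stood out in trigeminal ganglion (TG) libraries. The contrast of TG with the other ganglia therefore served to choose them, and it is described below with no test.

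The 16 libraries came from naïve male C57BL/6J mice of 8 to 12 weeks with the genotype Pirt-cre/-/Rosa26 LSL-tdTomato/+ (*Pirt*/TdTomato), in which Cre driven by the sensory neuron gene *Pirt* switches on the red fluorescent protein TdTomato. There were 4 libraries each from TG, the nodose and jugular ganglion complex (NG/JG), L3–L5 dorsal root ganglia (DRG) and T10-L1 DRG. All 4 groups carried the same alleles and received no treatment, so by their labels they differed only in the ganglion. Whole left and right ganglia were dissected after perfusion and dissociated, and bright TdTomato-positive cells were sorted in 2 cycles, so the libraries hold pools of sorted cells and whatever other RNA came through the sort.

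Oligodendrocytes make the myelin of the brain and spinal cord, whereas Schwann cells make that of peripheral nerves. Both cell types use proteins such as Mbp, while Mog, Mobp, Ermn and Hapln2 are known mainly from central myelin. The root of a cranial or spinal nerve is myelinated by oligodendrocytes up to a transition zone and by Schwann cells beyond it, and the sensory neurons themselves make no myelin.

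The libraries had 4735624 to 13333318 reads on genes, and the TG libraries had 5082985 to 7877884. A floor of 3 counts corresponded to 0.225 to 0.633 CPM, the count of a gene scaled to a fixed total of reads on genes, a limit from counting alone, as the cDNA molecules were not tagged. Several libraries stood apart. TG library 1 had reads on 11527 genes, against 14441 to 15354 in the other TG libraries. In L3–L5 DRG library 4, 66.6% of uniquely aligned reads lay outside genes, and in T10-L1 DRG library 1 51.5%, against 29.6% to 47.0% in the other 14. The mice are labelled male, but every library had 1279 to 8362 reads on *Xist* and 0 reads on the 7 chromosome Y genes examined. *Pirt* itself had 106 to 3164 reads in every library.

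*Hapln2* (chr3:87825672-87831505, minus strand, mm9) encodes a link protein of the perinodal matrix of central myelinated axons, and *Klk6* (chr7:51079869-51087397, plus strand, mm9) a secreted kallikrein-type serine protease abundant in mature oligodendrocytes. They are the pair for which the gene set was chosen, so the bases before their start sites are shown, taken from RefSeq on GRCm38.p6 and cut where an exon annotated in GENCODE begins. Capitals mark the E-box CANNTG, the motif of basic helix-loop-helix factors, the class to which Olig1 and Olig2 belong. *Klk6* has 2 annotated starts. The windows are chr3:88027584-88027761 (minus strand), chr7:43824294-43824498 and chr7:43825200-43825449 (both plus strand).
Hapln2: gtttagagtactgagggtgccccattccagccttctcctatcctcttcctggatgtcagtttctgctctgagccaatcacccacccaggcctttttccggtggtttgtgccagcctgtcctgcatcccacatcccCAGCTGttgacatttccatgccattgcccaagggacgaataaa
Klk6, start 1: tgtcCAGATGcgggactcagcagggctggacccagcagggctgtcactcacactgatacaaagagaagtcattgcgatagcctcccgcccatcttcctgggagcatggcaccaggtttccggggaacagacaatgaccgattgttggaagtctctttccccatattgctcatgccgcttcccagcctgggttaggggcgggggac
Klk6, start 2: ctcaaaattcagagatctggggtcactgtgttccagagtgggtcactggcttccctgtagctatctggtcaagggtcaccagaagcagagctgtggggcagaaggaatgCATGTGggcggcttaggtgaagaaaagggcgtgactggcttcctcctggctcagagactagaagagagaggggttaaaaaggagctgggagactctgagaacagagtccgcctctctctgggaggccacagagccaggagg
In the full 250 bases before a start, each of these 3 windows held 1 E-box. The pattern CANNTG is the same on both strands, but of the marked sites only that of *Hapln2* reads alike letter for letter. Of the 9 starts listed for 8 of the genes, 4 held at least 1 E-box. The share over all 32851 starts searched was 66.2%. The remaining gene, *Olig1*, was not listed. A match describes the letters only.

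*Hapln2* had 632, 21, 308 and 51 reads in TG libraries 1 to 4, which was 80.2, 4.13, 52.9 and 8.96 CPM. The NG/JG libraries had 0, 1, 0 and 0 reads, the L3–L5 DRG libraries 1, 0, 1 and 5, and the T10-L1 DRG libraries 1, 0, 0 and 0. All 4 TG libraries lay above all 12 others, and TG libraries 1 and 3 were far above TG libraries 2 and 4. The TG mean was 36.6 ± 36.5 CPM (SD, n = 4). It was 118-fold that of L3–L5 DRG, at 0.309 ± 0.500 CPM. Against NG/JG and T10-L1 DRG, each with 1 read in all, the ratio of pooled reads was 1360 (95% counting interval 243 to 53759) and 1759 (315 to 69552). Without TG library 1 the TG mean was 22.0 CPM, 71.2-fold that of L3–L5 DRG, and the ratios of pooled reads to NG/JG and T10-L1 DRG were 753 (134 to 29816) and 974 (174 to 38575). The single read of NG/JG was in its library 2 and that of T10-L1 DRG in its library 1, and with that library left out TG was at least 332-fold and at least 496-fold higher, taking 3 counts over the group. Without L3–L5 DRG library 4, which held 5 of the 7 reads of its group, 2 reads were left there and the ratio of pooled reads was 672 (185 to 5554).

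*Klk6* had 910, 111, 1323 and 234 reads in the TG libraries, or 116, 21.8, 227 and 41.1 CPM. There were 1, 0, 1 and 0 reads in NG/JG, 19, 0, 2 and 16 in L3–L5 DRG, while T10-L1 DRG had 7, 2, 0 and 1. TG lay wholly above the other 12 libraries again, and TG library 3 held the highest level. The TG mean was 101.4 ± 93.1 CPM (SD, n = 4), 75.3-fold that of L3–L5 DRG (1.35 ± 1.59) and 304-fold that of T10-L1 DRG (0.334 ± 0.497). Against the 2 reads of NG/JG, the ratio of pooled reads was 1732 (95% counting interval 479 to 14309). Without TG library 3 the folds over L3–L5 DRG and T10-L1 DRG were 44.1 and 178, and without TG library 1 they were 71.8 and 290. The ratio to NG/JG was 1106 (306 to 9144) without TG library 3, 2707 (485 to 106952) without NG/JG library 1 and 2702 (484 to 106754) without NG/JG library 3. Without L3–L5 DRG library 4 the fold over L3–L5 DRG was 151, and without T10-L1 DRG library 1, which left 3 reads, the ratio of pooled reads was 1264 (432 to 6134).

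*Hapln2* and *Klk6* were the only 2 of the 9 genes whose 4 TG libraries lay above all 12 others in CPM. With TMM-scaled CPM or DESeq2's size factors *Mog* did so too, which made 3. Over all 20459 genes with a read, 0.816% did so, and over the 14275 genes with a mean of at least 1 CPM, 1.16% did. Since the pair was picked for this pattern, the count is a description. The gap was narrow for *Hapln2*, with 4.13 CPM in the lowest TG library against 1.06 CPM in L3–L5 DRG library 4. For *Klk6* it was 21.8 against 3.38 CPM, in the same library of L3–L5 DRG.

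**Figure D1:**
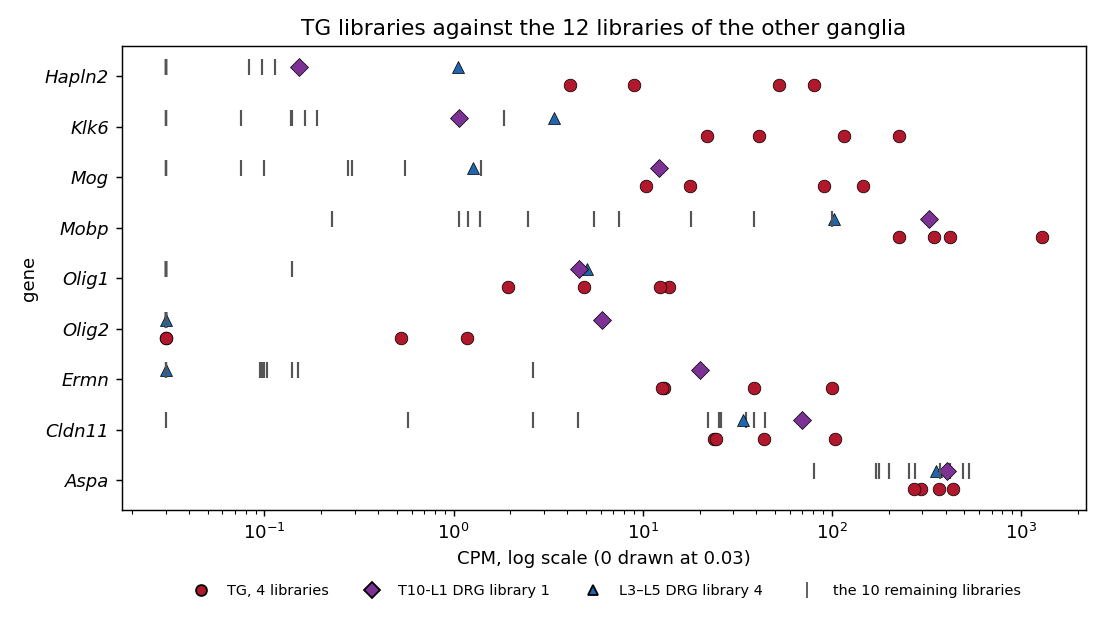
CPM on a log scale for each of the 9 genes, with values of 0 drawn at 0.03. Red circles are the 4 TG libraries, the purple diamond is T10-L1 DRG library 1, the blue triangle is L3–L5 DRG library 4 and grey ticks are the 10 remaining libraries. Only for *Hapln2* and *Klk6* do all red circles lie to the right of every other mark, and T10-L1 DRG library 1 lies within the range of the TG libraries for *Mog*, *Mobp*, *Olig1*, *Ermn*, *Cldn11* and *Aspa*.

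The structural genes of the central myelin sheath were *Mog* (chr17:37147691-37160343, minus strand), *Mobp* (chr9:120058860-120090602, plus strand) and *Ermn* (chr2:57897524-57905275, minus strand, all mm9). Mog is an immunoglobulin-like protein of the outermost myelin lamella, Mobp a small basic protein of compact myelin and Ermn (ermin) a cytoskeletal protein of mature oligodendrocytes. *Ermn* shares 237 bases of exon with *Galnt5* on the other strand, and the strand setting of the counting is not given in the sources used here, so reads there cannot be assigned.

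*Mog* had 1159, 53, 529 and 101 reads in the TG libraries, or 147, 10.4, 90.9 and 17.7 CPM. It had 2, 0, 4 and 0 reads in NG/JG, 3, 1, 0 and 6 in L3–L5 DRG, while T10-L1 DRG had 80, 0, 17 and 1. TG did not overlap NG/JG or L3–L5 DRG, but T10-L1 DRG library 1 (12.2 CPM) lay above TG library 2. The TG mean was 66.5 ± 64.9 CPM (SD, n = 4), which was 320-fold that of NG/JG, 161-fold that of L3–L5 DRG and 19.4-fold that of T10-L1 DRG. Without T10-L1 DRG library 1 the last fold was 136, without L3–L5 DRG library 4 that over L3–L5 DRG was 511, and without TG library 1 the 3 folds were 191, 95.7 and 11.6. Without NG/JG library 3, which held 4 of the 6 reads of its group, the ratio of pooled reads to NG/JG was 965 (95% counting interval 267 to 7976).

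*Mobp* had the highest mean level per length of the 9 in TG. Its reads in the TG libraries were 10160, 1773, 2462 and 1291, or 1290, 349, 423 and 227 CPM. There were 130, 2, 10 and 376 reads in NG/JG, 11, 12, 91 and 488 in L3–L5 DRG, while T10-L1 DRG had 2146, 26, 1226 and 74. Outside TG it was thus present in every library but very uneven, with 171-fold between the highest and lowest NG/JG library and 133-fold within T10-L1 DRG. The TG mean was 572 ± 485 CPM (SD, n = 4), 39.1-fold that of NG/JG, 20.3-fold that of L3–L5 DRG and 5.24-fold that of T10-L1 DRG, whose library 1 (328 CPM) exceeded TG library 4. Without that library the fold over T10-L1 DRG was 15.8, and without L3–L5 DRG library 4 that over L3–L5 DRG was 176. Without NG/JG library 4 the fold over NG/JG was 87.1. Without TG library 1 the folds were 22.7, 11.8 and 3.05.

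*Ermn* had 791, 66, 227 and 72 reads in TG, or 100, 12.98, 39.0 and 12.6 CPM. The other ganglia had 1, 0, 0 and 1 reads (NG/JG), 1, 1, 32 and 0 (L3–L5 DRG) and 132, 1, 0 and 2 (T10-L1 DRG). Nearly all reads outside TG came from 2 libraries, L3–L5 DRG library 3 and T10-L1 DRG library 1, and the latter (20.2 CPM) lay above 2 TG libraries. The TG mean of 41.3 ± 41.3 CPM (SD, n = 4) was 58.3-fold that of L3–L5 DRG and 8.08-fold that of T10-L1 DRG. The ratio of pooled reads to NG/JG was 777 (95% counting interval 215 to 6420). With each of those 2 libraries left out, L3–L5 DRG kept 2 reads and T10-L1 DRG 3, and the ratios of pooled reads were 593 (164 to 4899) and 567 (193 to 2753). Without TG library 1 the folds over L3–L5 DRG and T10-L1 DRG were 30.4 and 4.22 and the ratio to NG/JG was 362 (99.4 to 2997), and without NG/JG library 1 that ratio was 1214 (217 to 47981).

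*Olig1* (chr16:91270014-91272184) and *Olig2* (chr16:91225795-91228922, both plus strand, mm9) encode the basic helix-loop-helix transcription factors of the oligodendrocyte lineage, with *Olig2* needed to specify it. *Olig1* had 109, 25, 72 and 11 reads in TG, or 13.8, 4.92, 12.4 and 1.93 CPM. Outside TG it had 1 read in NG/JG library 1, 24 in L3–L5 DRG library 4, 30 in T10-L1 DRG library 1, and 0 in the other 9. Those last 2 libraries, at 5.07 and 4.59 CPM, lay within the TG range. The TG mean was 8.26 ± 5.75 CPM (SD, n = 4), 6.52-fold that of L3–L5 DRG and 7.21-fold that of T10-L1 DRG. Each of those folds rests on 1 library of the lower group, and without it, at 0 reads, TG was at least 96.0-fold higher than L3–L5 DRG and at least 106-fold higher than T10-L1 DRG, taking 3 counts over the group.

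*Olig2* did not follow *Olig1*. It had 0, 6, 0 and 3 reads in TG, 40 reads in T10-L1 DRG library 1 and 0 in the other 11 libraries. T10-L1 DRG library 1, at 6.11 CPM, thus lay above all TG libraries, and the 2 TG libraries with the most *Olig1* had no *Olig2*. The mean was 0.427 ± 0.560 CPM in TG and 1.53 ± 3.06 in T10-L1 DRG (SD, n = 4), 3.58-fold higher in the latter and there from 1 library alone, without which T10-L1 DRG had 0 reads. Against NG/JG and L3–L5 DRG, with 0 reads, TG was at least 4.03-fold and at least 4.56-fold higher, with the same bound. Without TG library 2, which held 6 of the 9 TG reads, 3 reads were left and no fold was given.

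*Cldn11* (chr3:31048868-31063246, plus strand, mm9) encodes claudin 11, the tight junction protein of central myelin, and *Aspa* (chr11:73118494-73140309, minus strand, mm9) aspartoacylase, which splits N-acetylaspartate and supplies acetate for myelin lipids. *Cldn11* had 822, 121, 255 and 139 reads in TG, or 104, 23.8, 43.8 and 24.4 CPM. It had 19, 309, 0 and 245 reads in NG/JG, 227, 46, 7 and 161 in L3–L5 DRG, while T10-L1 DRG had 454, 465, 472 and 348. The T10-L1 DRG libraries were the most even and overlapped TG throughout. The mean was 49.1 ± 38.0 CPM in TG and 44.6 ± 18.2 in T10-L1 DRG (SD, n = 4), a ratio of 1.10 or 0.14 on the log2 scale. That log2 ratio was -0.28 with medians in place of means, -0.54 without TG library 1 and -0.05 without T10-L1 DRG library 4. TG was 3.11-fold NG/JG and 3.21-fold L3–L5 DRG, with overlapping libraries. Without TG library 1 these folds were 1.94 and 2.00, without NG/JG library 2 the first was 5.27 and without L3–L5 DRG library 4 the second was 5.41.

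*Aspa* had no TG pattern. It had 3467, 1868, 1733 and 1560 reads in TG, 1279, 4334, 1986 and 4088 in NG/JG, 2651, 2029, 983 and 1691 in L3–L5 DRG, while T10-L1 DRG had 2657, 5607, 4539 and 2280. The highest CPM of all, 534, was in T10-L1 DRG library 2, and all 4 groups overlapped. The means were 345 ± 74.9 CPM in TG, 342 ± 142 in NG/JG, 371 ± 150 in T10-L1 DRG and 224 ± 115 in L3–L5 DRG (SD, n = 4). The ratio of TG to NG/JG was 1.01 and to T10-L1 DRG 0.929, 0.01 and -0.11 on the log2 scale. The first was -0.07 with medians, -0.13 without TG library 1, -0.02 without TG library 2, -0.20 without NG/JG library 1 and -0.08 without NG/JG library 3. The second was 0.26 with TMM scaling, 0.24 with DESeq2's size factors and 0.12 without T10-L1 DRG library 2.

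**Figure D2:**
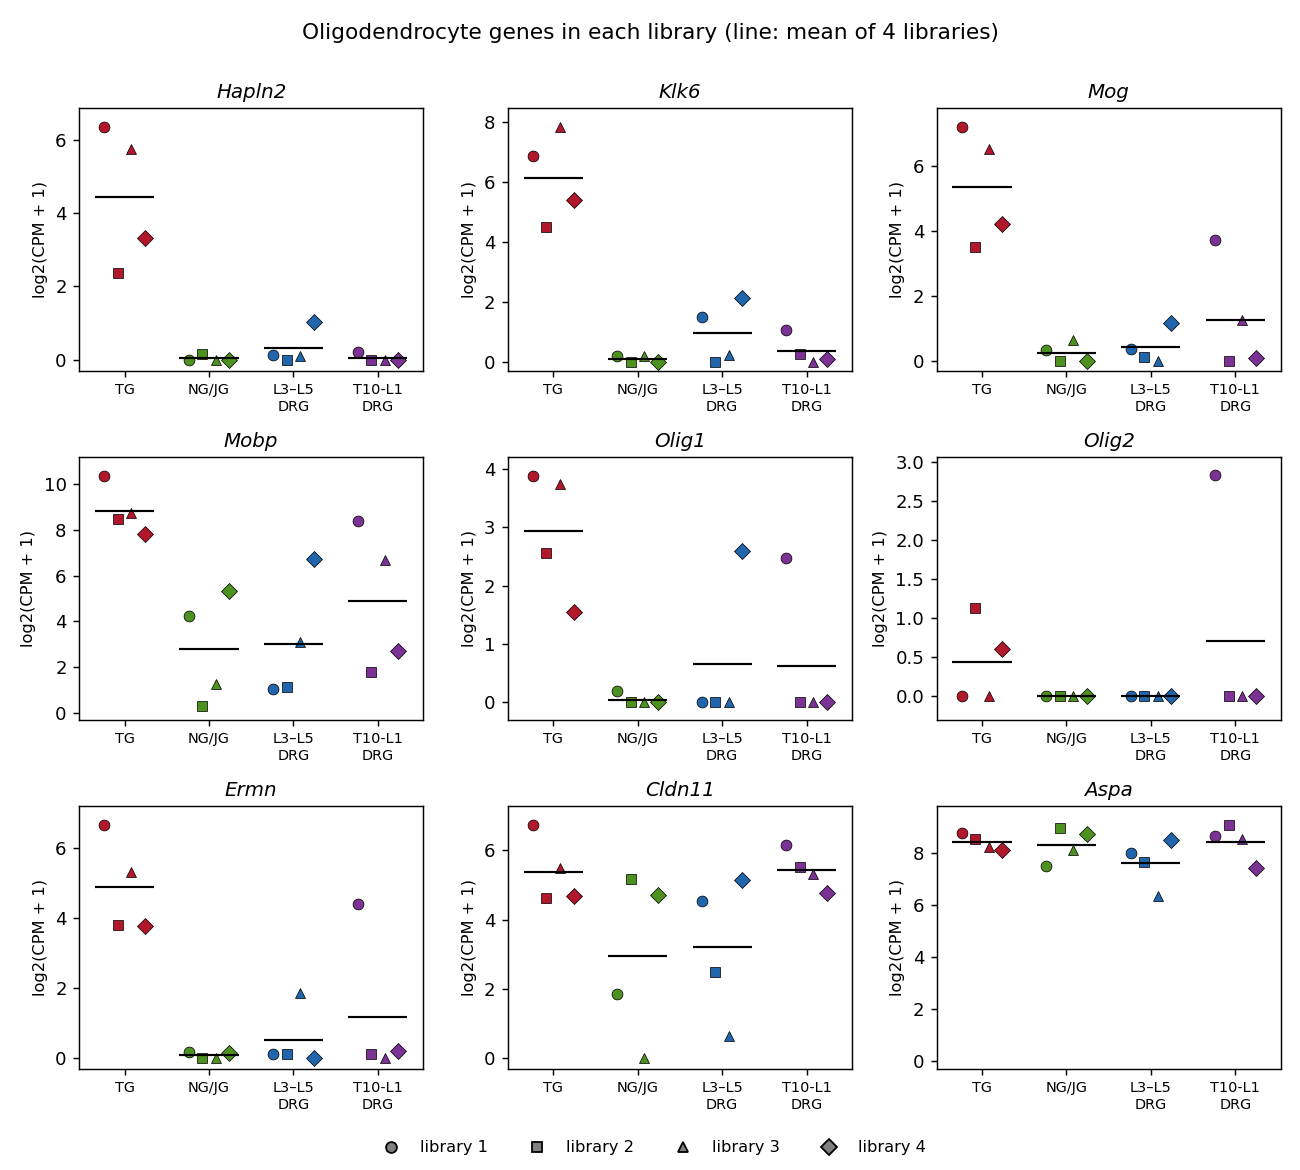
The 9 genes in every library as log2(CPM + 1), with a panel for each gene, the 4 ganglia along the x axis, 1 symbol shape per library number and a line at the mean of 4 libraries. *Hapln2* and *Klk6* are near 0 outside TG, *Mog*, *Mobp*, *Olig1* and *Ermn* are high in single libraries of the other ganglia, *Olig2* is highest in T10-L1 DRG library 1, and *Cldn11* and *Aspa* are spread over all ganglia.

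Levels of different genes were compared as RPKM, which is CPM per kilobase of exon. The mean RPKM in TG was 88.0 ± 74.7 for *Mobp*, 69.7 ± 64.0 for *Klk6*, 61.3 ± 13.3 for *Aspa*, 39.1 ± 38.1 for *Mog*, 26.6 ± 20.6 for *Cldn11*, 15.4 ± 15.4 for *Hapln2*, 11.4 ± 11.4 for *Ermn*, 3.81 ± 2.65 for *Olig1* and 0.175 ± 0.230 for *Olig2* (SD, n = 4). Among neighbours in this order, only *Olig1* and *Olig2* had ranges that did not overlap. The order also differed between TG libraries. *Klk6* led in TG library 3, *Mobp* in TG library 1, and *Aspa* in TG libraries 2 and 4. By mean RPKM in TG, 796 of the 21647 genes with a length were above *Mobp*, 981 above *Klk6*, 3454 above *Hapln2* and 7935 above *Olig1*, and 14375 above *Olig2*.

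**Figure D3:**
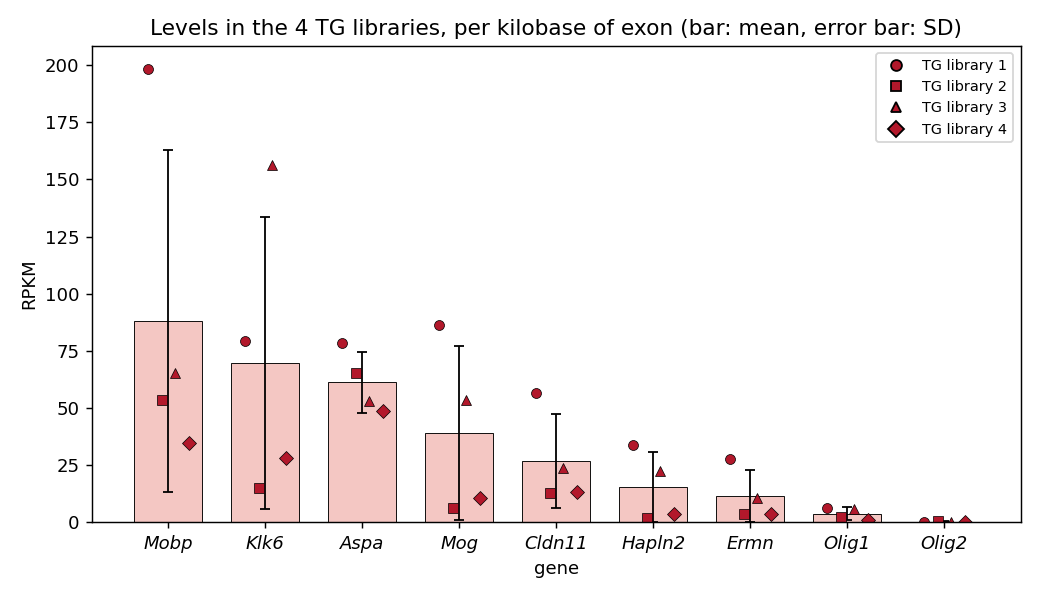
RPKM of the 9 genes in the 4 TG libraries, in order of their means. Bars are means, error bars the SD (cut at 0) and symbols the libraries. *Mobp* reaches 199 RPKM in TG library 1 and *Klk6* 156 in TG library 3, and the wide bars for all but *Aspa* show how far the TG libraries differ.

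The genes varied together across TG, with exceptions. TG library 1 was highest for *Hapln2*, *Mog*, *Mobp*, *Olig1*, *Ermn*, *Cldn11* and *Aspa*, and the ratio of its CPM to the mean of TG libraries 2 to 4 was 3.65 for *Hapln2*, 3.71 for *Mog*, 3.87 for *Mobp*, 4.66 for *Ermn*, 3.40 for *Cldn11*, 2.16 for *Olig1* and 1.41 for *Aspa*. For *Klk6* this ratio was 1.19. Per read of *Mog*, *Klk6* had 0.785 reads in TG library 1 and 2.09, 2.50 and 2.32 in TG libraries 2, 3 and 4, a difference among libraries in which both genes had 53 reads or more. *Hapln2* kept a narrower ratio to *Mog*, from 0.396 to 0.582 in the 4 libraries.

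TG library 1 differed in other cell markers as well. Its summed CPM was 22761 for 6 satellite glial cell genes, against 52934 to 62456 in TG libraries 2 to 4, and 939 for 12 sensory neuron genes, against 2183 to 4310. It was 1051 for 8 microglia genes, against 212 to 348, and 0.508 for 7 oligodendrocyte precursor genes, against 35.5 to 52.1. The part of these differences in the levels of the 9 genes was not tested. In such bulk samples fewer cells of a type and less RNA per cell cannot be told apart.

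T10-L1 DRG library 1 carried most of these genes without the pair that stood out in TG. It had 80 reads of *Mog*, 132 of *Ermn*, 2146 of *Mobp*, 30 of *Olig1* and 40 of *Olig2*, but 1 of *Hapln2* and 7 of *Klk6*. Per read of *Mog* it had 0.0125 of *Hapln2* and 0.0875 of *Klk6*, below all 4 TG libraries. Because the pair was chosen for standing out in TG, these ratios are a description. The same ratios were 0.833 and 2.67 in L3–L5 DRG library 4, above all 4 TG libraries but from few reads. They were 0 and 0.25 in NG/JG library 3 and 0 and 0 in T10-L1 DRG library 3. T10-L1 DRG library 1 also held 77 reads of *Neu4* and 104 of *Gpr17*, both known from immature oligodendrocytes and named after their values were seen, where the TG libraries had 0 of *Neu4* and 0, 0, 1 and 1 of *Gpr17*. Between NG/JG and T10-L1 DRG the edgeR log2 fold change of *Gpr17* was 0.31 (SE 2.07). The summed CPM of all 7 precursor genes was 143 in T10-L1 DRG library 1, within the 73.5 to 157 of its group, where library 4 was highest. It was 58.4 to 131 in L3–L5 DRG, 16.2 to 95.8 in NG/JG and 0.508 to 52.1 in TG. Without T10-L1 DRG library 1, 5 of the 9 genes rather than 2 had all TG libraries above the rest, with *Mog*, *Mobp* and *Ermn* added, and 0.894% of all genes with a read did so. L3–L5 DRG library 4 had another makeup, with 488 reads of *Mobp*, 24 of *Olig1*, 16 of *Klk6*, 6 of *Mog*, 5 of *Hapln2* and 0 of *Ermn* and *Olig2*. These 2 libraries were the pair with the largest share of reads outside genes. They held 98.2% of all *Olig1* reads outside TG, 77.2% for *Ermn*, 75.4% for *Mog* and 57.4% for *Mobp*. For *Olig2* it was 100%, for *Hapln2* 66.7% of 9 reads, for *Klk6* 46.9%, for *Cldn11* 22.3% and for *Aspa* 12.7%. The *Ermn* and *Olig2* reads were all from T10-L1 DRG library 1. The part that the share of reads outside genes had in this was not tested.

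The 3 pairs of ganglia without TG were not used to choose the genes and were tested. The quasi-likelihood test of edgeR was run on the 8 libraries of a pair over all genes, with Benjamini-Hochberg adjustment, and a gene was called at an adjusted p under 0.05. Only *Mobp*, *Cldn11* and *Aspa* passed the filter on low counts in each pair, and 0 of these 3 were called by edgeR in any pair, with 0 at an unadjusted p under 0.05, which 5.91% of all genes tested had in NG/JG against T10-L1 DRG, 6.04% in NG/JG against L3–L5 DRG and 6.07% between the DRG groups. Over all genes 0.0322% were called in NG/JG against T10-L1 DRG, 0% in NG/JG against L3–L5 DRG and 0% in L3–L5 DRG against T10-L1 DRG. DESeq2 gave an adjusted p to 5, 8 and 5 of the 9 in the 3 pairs and called 0 (6.14%, 4.82% and 0.488% of all genes), and it gave an unadjusted p under 0.05 to 1, *Klk6* in NG/JG against L3–L5 DRG, as to 12.1% of all genes. Nothing says whether the libraries came from separate animals, so p-values measure the spread between these libraries.

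The lowest edgeR p among the tested genes was that of *Mobp* in NG/JG against T10-L1 DRG, with a log2 fold change of -2.69 (SE 1.69, edgeR adjusted p = 1.00). In NG/JG against L3–L5 DRG it was that of *Aspa*, at 0.76 (SE 0.50, edgeR adjusted p = 0.999). In L3–L5 DRG against T10-L1 DRG it was that of *Cldn11*, at -1.62 (SE 0.92, edgeR adjusted p = 0.797).

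A list of 18 other oligodendrocyte genes was examined beside the 9 in the TG pairs, which share the TG libraries. In TG against T10-L1 DRG, 12 passed the filter, 1 was called higher and 0 lower, where 5.87% of all genes were called (4.33% higher in TG). In TG against L3–L5 DRG 0 of 11 were called (0% of all genes), and 2 had an unadjusted p under 0.05 (18.2% of all genes). In TG against NG/JG 0 of 10 were called (0.051% of all genes), and 3 had an unadjusted p under 0.05 (10% of all genes). DESeq2 called 5 in each pair, where it called 15%, 11.3% and 6.39% of all genes. Of these, 4, 5 and 4 were higher in TG, and *Tmem88b*, named after its values were seen, was lower in TG than in T10-L1 DRG and NG/JG. None of the 18 had all TG libraries above the other 12.

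The gene called was *Bcas1*, which encodes a protein of early myelinating oligodendrocytes and is also made in other tissues. Its CPM in TG was 1220, 630, 389 and 432, and in T10-L1 DRG 391, 154, 126 and 127. TG library 3 lay just below T10-L1 DRG library 1. The log2 fold change was 2.07 (SE 0.47, edgeR adjusted p = 0.0371), and the call held in 1 of the 8 fits that left out a library, the one without TG library 1, with adjusted p from 0.0131 to 0.125. Without TG library 1, *Adamts4* and *S1pr5* were called as well. Of the 3 listed genes called in that fit, 2 were higher in TG and 1 was lower. With no library left out, the log2 fold change was -0.03 (SE 0.77) for *Adamts4* and 5.01 (SE 1.55) for *S1pr5*. The fit without TG library 1 called 3583 of all genes tested, in place of 758.

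The other listed genes were unevenly shared among the TG libraries. *Enpp6*, a choline phosphodiesterase of newly forming oligodendrocytes, had 828, 0, 107 and 6 reads in TG and up to 79 elsewhere. *Adamts4*, a matrix protease, had 929 reads in TG library 1, 61 to 75 in the other TG libraries and up to 844 in NG/JG. *Opalin*, a membrane protein of mature oligodendrocytes, had 49 reads in TG library 4 and 0 in the other TG libraries, and *Gpr62* had 0, 0, 76 and 21, both named after their values were seen. TG library 2 thus lacked *Enpp6* while it had 53 reads of *Mog*, and TG library 1 lacked *Opalin* and *Gpr62* while it had 1159.

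Myelin genes that Schwann cells share were abundant everywhere. Of 13 such genes, all passed the filter, and 2 were called in TG against T10-L1 DRG, *Mbp*, the myelin basic protein gene (log2 fold change 2.07, SE 0.52, edgeR adjusted p = 0.0460), and *Pllp*, the plasmolipin gene (1.95, SE 0.42, adjusted p = 0.0318). In the other TG pairs edgeR called 0. DESeq2 called 4 higher and 1 lower in TG than in T10-L1 DRG, 1 lower than in L3–L5 DRG and 1 higher than in NG/JG. The lower gene in both DRG pairs was *Tspan2*, named after its values were seen, and the one higher than in NG/JG was *Mbp*. *Mbp* reached 13364 to 32546 CPM in TG and 2643 to 20724 in the other ganglia, so the levels of *Hapln2* and *Klk6* were small beside it. Of 10 Schwann cell myelin genes, 2 were called by edgeR in TG against T10-L1 DRG, *Ncmap* (3.13, SE 0.50, adjusted p = 0.0254), listed under an older symbol, and *Cldn19* (1.96, SE 0.47, adjusted p = 0.0403), both of peripheral myelin. DESeq2 called 3 of the 10 higher in TG than in T10-L1 DRG, 2 higher than in L3–L5 DRG and 0 against NG/JG. *Mbp* and *Cldn19* held in 1 of the 8 fits that left out a library, and *Pllp* and *Ncmap* in 2. Over all genes, edgeR called 5.87% in TG against T10-L1 DRG, 0% against L3–L5 DRG and 0.051% against NG/JG. DESeq2 called 15%, 11.3% and 6.39% of all genes in the same order of pairs.

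Precursor and brain cell genes were examined in the same TG pairs. The shares of all genes called by edgeR there were 5.87% against T10-L1 DRG, 0% against L3–L5 DRG and 0.051% against NG/JG. With DESeq2 they were 15%, 11.3% and 6.39%. Of 7 oligodendrocyte precursor genes, 3 passed the filter and edgeR called 0 in the TG pairs, each with a log2 fold change below 0. Against NG/JG the values were near 0 for *Cspg4* (-0.003, SE 1.51) and *Lhfpl3* (-0.038, SE 2.06), and -0.43 (SE 2.17) for *Pdgfra*. The median over all genes in that pair was -0.048. The largest in size was that of *Lhfpl3* against L3–L5 DRG, at -2.28 (SE 1.32). DESeq2 called 1, *Gpr17*, lower in TG than in T10-L1 DRG. Of 10 central neuron genes 0 passed, their summed level in TG was 0.127 to 3.16 CPM, and *Gad1*, *Slc32a1*, *Slc6a5* and *Neurod6* had 0 reads in all TG libraries. Of 10 astrocyte genes edgeR called 0 and DESeq2 called 2, both higher in TG than in NG/JG, with 447 to 760 summed CPM in TG and 423 to 908 in T10-L1 DRG. Of 8 microglia genes edgeR called 0 and DESeq2 called 1, *Tmem119*, higher in TG than in NG/JG and named after its values were seen, with 212 to 1051 summed CPM in TG and 172 to 1726 in T10-L1 DRG. Of 6 satellite glial cell genes edgeR called 1, *Cdh19*, lower in TG than in T10-L1 DRG (log2 fold change -1.96, SE 0.45, edgeR adjusted p = 0.0374), and this held in 2 of the 8 fits that left out a library, with adjusted p up to 0.131. DESeq2 called it as well, and 2 others of the 6 higher in TG than in each of the DRG groups. Of 12 sensory neuron genes edgeR called 0, while DESeq2 called 1 higher and 2 lower in TG than in T10-L1 DRG, 3 lower than in L3–L5 DRG and 1 higher than in NG/JG.

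Genes of the meninges and the pituitary, which lie near TG, were examined as well. In TG against T10-L1 DRG edgeR called 5.87% of all genes. DESeq2 called 15% there, 11.3% against L3–L5 DRG and 6.39% against NG/JG. Of 6 leptomeningeal genes, *Ptgds*, the prostaglandin D2 synthase gene, was called by edgeR in TG against T10-L1 DRG (log2 fold change 6.36, SE 0.89, edgeR adjusted p = 0.0254), and *Ptgds* and *Slc22a6*, an organic anion transporter gene, had all 4 TG libraries above the other 12. The call of *Ptgds* held in 2 of the 8 fits that left out a library, with adjusted p up to 0.105, and DESeq2 called both genes in each TG pair. Of 12 pituitary genes, 3 passed the filter in that pair and were called, *Gh*, *Prl* and *Pomc*, and their calls held in 2, 1 and 2 of those 8 fits. Against NG/JG edgeR called *Gh* alone of the list (0.051% of all genes), and against L3–L5 DRG it called 0 (0% of all genes). DESeq2 called *Gh* and *Pomc* higher in each TG pair, but *Prl* in none. The study itself chose *Gh*, *Prl*, *Pomc* and *Ptgds* on these samples, so their direction is not independent evidence. *Gh* and *Prl* lay wholly above the other libraries. *Prl* had 437, 3145, 49211 and 221 reads in TG and *Gh* 105, 2615, 2683 and 150. Their order over the TG libraries was not that of *Mog*, whose highest library was TG library 1. Where the oligodendrocyte reads in TG came from was not tested.

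**Figure D4:**
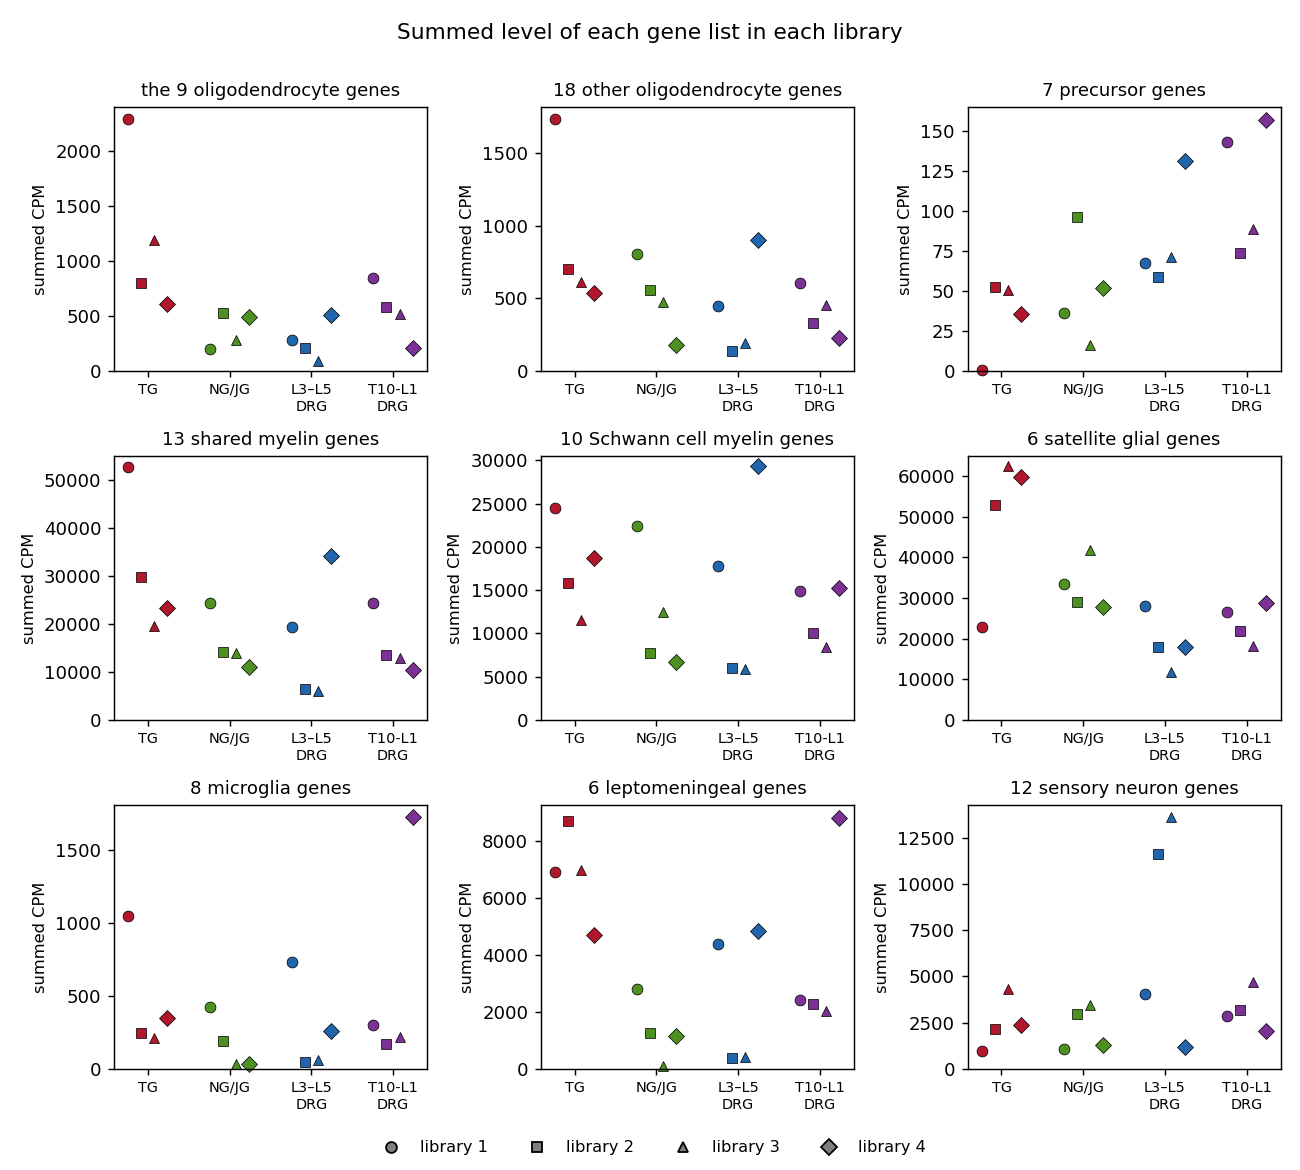
Summed CPM of the 9 oligodendrocyte genes and of 8 other gene lists in each library, with the 4 ganglia along the x axis, 1 symbol shape per library number and a separate linear scale from 0 in each panel. TG library 1 is highest of all libraries for the 9 genes, the other oligodendrocyte genes and the shared myelin genes, and lowest of the TG libraries for satellite glial, precursor and sensory neuron genes.

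Likeness in pattern was measured as the root mean square difference between a gene and the mean of the 9 genes in log2(CPM + 1), both standardised over the 16 libraries, which is 0 for the same pattern and 1.41 for uncorrelated ones. Each of the 9 was set against the mean of the other 8, so that its own values were not part of it. *Mog* was closest (0.267), followed by *Olig1* (0.379), *Ermn* (0.453), *Klk6* (0.493), *Hapln2* (0.502) and *Mobp* (0.562), while *Cldn11* (0.962), *Aspa* (1.16) and *Olig2* (1.17) were far from it. Of the 14267 other genes, set against the mean of all 9, the closest were AI848285 (0.307), *Cd3g* (0.423), *Slc22a6* (0.426), *Cyp2f2* (0.469), *Snrpb* (0.531), *Sec62* (0.552), *Lat* (0.556), *Rpl8* (0.564), *Ptgds* (0.564) and *Krt18* (0.575). *Cd3g*, a T cell receptor complex gene, had 271, 31, 40 and 34 reads in TG and at most 3 in any other library. None of the 10 belongs to the oligodendrocyte lists.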

How the data were processed

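RNA-seq was done by the authors on *Pirt*/TdTomato-positive cells with oligo dT, SMART-seq2 cDNA and 50 bp single reads, aligned with TopHat2 to mm9 and counted with HTSeq. The annotation, the strand setting and the tool versions are not given in the sources used here. Deposited by the authors were raw counts per gene symbol, not normalized, and the 5 rows of uncounted reads were left out. Replicate libraries differed beyond sampling noise (chi-square per gene 29.9 to 375).

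CPM was computed from reads on genes, and RPKM from merged GENCODE vM1 exons on NCBIM37, the assembly of mm9. Each pair of ganglia was fitted with edgeR 4.0.16 (TMM, filterByExpr, quasi-likelihood) in R 4.3.3, tested on simulated data. DESeq2 1.42.0, other scalings, no filter, all 16 libraries, a replicate block and each library left out were the alternatives. Ratios of 1 to 3 counts were given with exact binomial intervals.

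The genes, the lists and the naming rule were chosen with earlier results of these data known. All 9 genes were described. The member with the lowest p was named in each pair, and of other lists up to 4 genes, those called, then those highest in TG, besides the 10 genes most like the 9 in pattern. Python 3.11.15 was used for summaries.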

Additional observations from a re-analysis of the deposited data

Results flagged for a closer look

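The 9 genes in 4 ganglia make 36 groups of 4 libraries, of which 29 had a library with over 3 reads and were examined. In 8 of these 29, 1 library stood far from the other 3, its gap relative to the group's range above Dixon's 95% critical value. That value is set for normally distributed data. Here it was applied to CPM, often from few reads, in genes that share libraries, so the share expected by chance is not known. Of the 8, 4 were T10-L1 DRG library 1, with 12.2 CPM of *Mog* (the others at most 1.40), 4.59 of *Olig1* and 6.11 of *Olig2* (the others 0) and 20.2 of *Ermn* (the others at most 0.150). L3–L5 DRG library 4 gave 3, with 1.06 CPM of *Hapln2* (the others at most 0.0973), 103 of *Mobp* (the others at most 7.50) and 5.07 of *Olig1* (the others 0). L3–L5 DRG library 3 gave the last, with 2.64 CPM of *Ermn*, the others at most 0.0992. No group of TG libraries met this limit for any of the 9 genes.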

How the results depend on the processing

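In the 39 alternative fits of the ganglia without TG, which tested 3 to 9 of the genes each, 0 were called, and the ratios of TG to another ganglion kept their direction in all but 11 of 214 alternatives, those of *Cldn11* and *Aspa*. These were, on the log2 scale, for *Cldn11* over T10-L1 DRG -0.28 with medians and -0.54 to 0.43 with a library left out, for *Aspa* over NG/JG -0.067 with medians and -0.20 to 0.24 with a library left out, and for *Aspa* over T10-L1 DRG 0.26 with TMM-scaled CPM, 0.24 with DESeq2 size factors and -0.34 to 0.12 with a library left out. Genes with all TG libraries above the rest numbered 3 with TMM-scaled CPM or DESeq2 size factors and 2 to 5 with a library left out. Genes called over the whole table depended on the setting. In TG against T10-L1 DRG there were 758, but 427 without the filter, 2194 with DESeq2, 238 with all 16 libraries and 0 to 3583 with a library left out. In TG against L3–L5 DRG the 0 became 39, 1612, 206 and 0 to 2038, and in TG against NG/JG the 6 became 56, 856, 484 and 1 to 325. Each highest value was without TG library 1. In NG/JG against T10-L1 DRG the 4 became 9, 910, 54 and 1 to 5, in NG/JG against L3–L5 DRG the 0 became 2, 793, 83 and 0 to 2, and in L3–L5 against T10-L1 DRG 78 with DESeq2. Of the other oligodendrocyte genes, 1 was called in TG against T10-L1 DRG, but 2 without the filter, 5 with DESeq2, 0 with all libraries and 0 to 3 with a library left out. In TG against L3–L5 DRG it was 5 with DESeq2 and 0 to 1 with a library left out, and in TG against NG/JG 5 with DESeq2 and 1 with all libraries. The cause was not tested. Same-numbered libraries are not said to share animals, and their deviations correlated by -0.12 to 0.18, in no comparison above 0.1 in every pair. With the replicate block 0 genes were called in TG against T10-L1 DRG and NG/JG against T10-L1 DRG, 1 in TG against NG/JG, and 0 of the other oligodendrocyte genes in TG against T10-L1 DRG. At these depths, counts of 3 or fewer cannot order the libraries outside TG.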
